A study of Sus scrofa with 12 samples.

Results

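The 9 genes described here encode peptidases that act on dietary protein at the surface of the small intestine and inside its absorptive cells. They are ANPEP, ENPEP, DPP4, XPNPEP2, MEP1A, MEP1B, ACE, PEPD and TMPRSS15. They were taken from the array's gene annotation by symbol, as 9 of 13664 named genes and 16 of 47722 probe sets. For each gene the brightest probe set was used, the one with the highest mean over all arrays, and further probe sets of the same gene served as a check. TMPRSS15 carries its older symbol PRSS7 on the array.

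The series compared the duodenal mucosa of pigs (Sus scrofa) with high and with low feed efficiency (FE), a measure of how well feed is turned into body growth. One Affymetrix Snowball array was made from each of 12 pigs aged 140 days, 6 of high FE and 6 of low FE, with 3 males and 3 females in each group. Pigs 1 to 3 of each FE group are male and pigs 4 to 6 are female. Breed, diet and the FE value of each pig are not stated in the labels, and the tissue is a mixture of epithelium, glands, immune cells and connective tissue.

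Dietary protein reaches the duodenum after partial digestion in the stomach. There enteropeptidase, which sits on the brush border of duodenal enterocytes, cuts trypsinogen to trypsin, and trypsin then activates the other pancreatic proenzymes. The peptides they release are shortened at the microvillus surface by membrane-bound exopeptidases and endopeptidases. Amino acids, dipeptides and tripeptides are then taken up, and cytosolic peptidases split most of the small peptides inside the cell.

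All values are log2 signals as deposited, so a difference of 1 is a doubling of signal. Array medians lay between 3.83 and 3.91, and the number of arrays limits the precision. The median of 69 probe sets that match no pig sequence, which measures array background, lay between 2.16 and 2.53. Single background probe sets had means from 1.21 to 7.62, so a level above that median does not by itself show a transcript. All 9 genes and all 16 probe sets passed the filter on low signal and lay above the background median on 12 of 12 arrays. Markers of mature enterocytes, such as LCT and SI, had a mean signal between 7.88 and 9.98 in each of the 12 pigs. High FE pigs 1, 5 and 2 lay lowest on the first principal component, which held 24.9% of the variance. Low FE pig 6 stood apart on pancreatic acinar markers, whose mean signal was 7.01 there and 3.55 to 4.19 in the other 11 pigs.

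None of the 9 peptidase genes passed the test between high and low FE. Means were higher in high FE for 4 genes (ACE, MEP1A, ENPEP and DPP4) and lower for 5 (TMPRSS15, ANPEP, XPNPEP2, PEPD and MEP1B). Their median difference was -0.044, beside a median of -0.020 over all 33405 probe sets tested. In limma, 0 of the 9 passed an adjusted p of 0.05, where the share called among all probe sets was 0%. At an unadjusted p under 0.05 there were also 0 of 9, beside 5.99% of all probe sets. The values of the FE groups overlapped for each of the 9 genes, whereas 0.26% of all probe sets separated the groups completely. Fewer cells of a type and less RNA per cell cannot be told apart in such tissue samples.

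**Figure D1:**
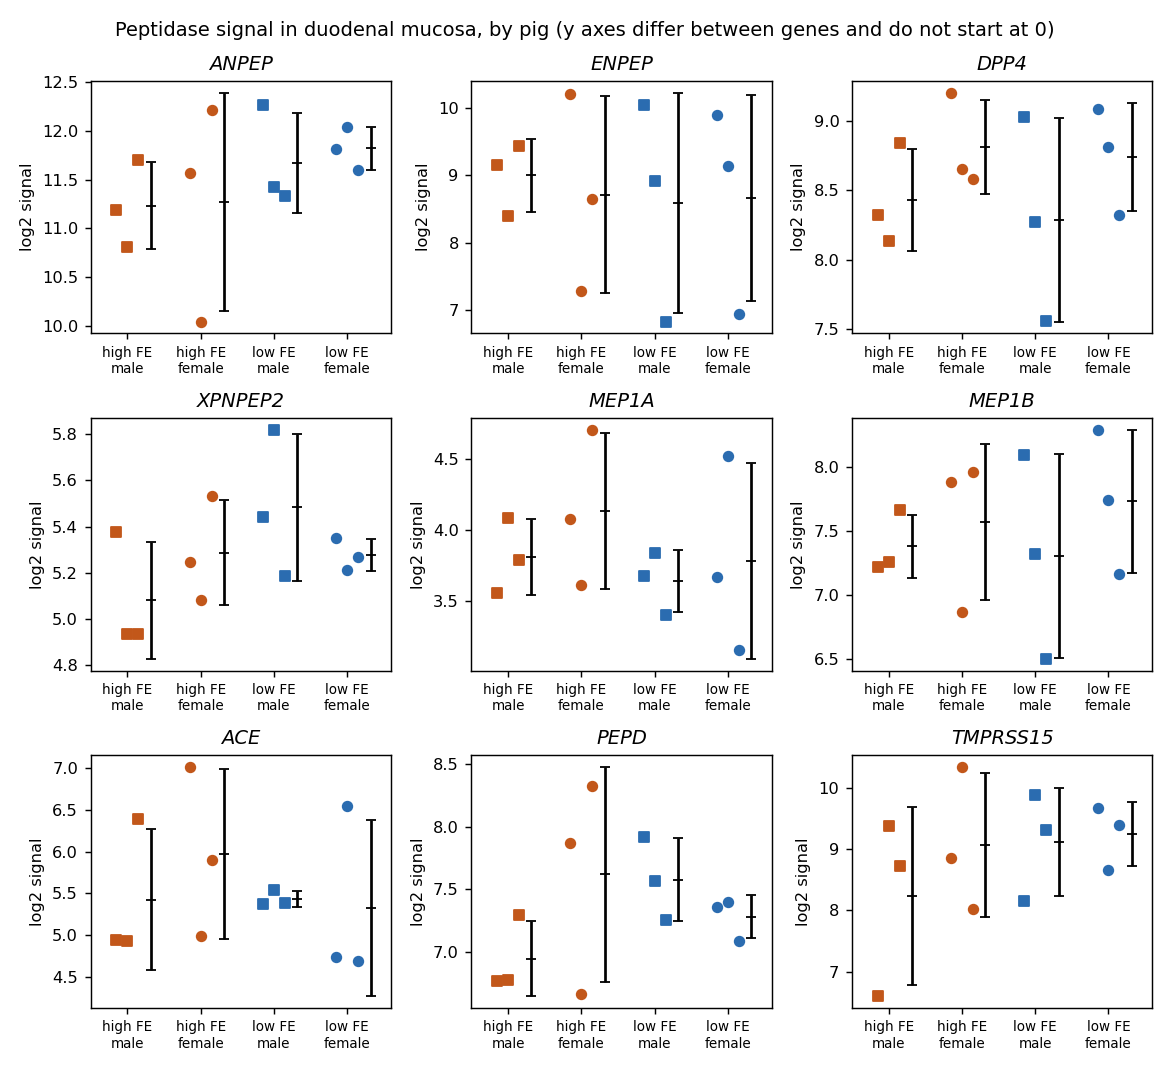
Log2 signal of each peptidase gene (y axis, own scale for each gene) in every pig, by FE and sex (x axis; squares are males, circles females, orange high FE, blue low FE), with the mean and SD of 3 pigs beside the points. The points of high FE and low FE pigs overlap for all 9 genes.

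ANPEP (probe set SNOWBALL_001471_st), aminopeptidase N, removes neutral amino acids from the start of peptides and is an abundant protein of the microvillus membrane. It had 10.04, 11.38 and 12.22 (lowest, median and highest) in high FE pigs, against 11.33, 11.71 and 12.26 in low FE pigs. The lowest 3 values all came from high FE pigs, 10.04 in pig 5, 10.81 in pig 2 and 11.19 in pig 1, and the other 9 pigs overlapped. Means were 11.25 ± 0.76 in high FE and 11.75 ± 0.36 in low FE (SD, n = 6 each). The difference of -0.49 ± 0.32 (SE; 95% interval -1.19 to 0.20) had the lowest p of the 9 genes, 0.150 unadjusted and 0.755 adjusted in limma. Without those same 3 pigs, which lie lowest on the first principal component, the difference was 0.054. Leaving out the 3 lowest values, all of high FE, had to raise the difference, and only 3 high FE pigs remained. With the mean of Brunner gland and gastric type markers in the model it was -0.84 (unadjusted p 0.0117, adjusted p 0.871 in limma), and with that of mature enterocyte markers -0.68 (unadjusted p 0.0223, adjusted p 0.797). It was -0.70 without high FE pig 6 (unadjusted p 0.0377, adjusted p 0.524 in limma) and -0.21 without high FE pig 5. Its 3 other probe sets differed by -0.46, -0.14 and -0.15 and followed the brightest closely across pigs, with r of 0.99, 0.96 and 0.86.

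ENPEP (SNOWBALL_011793_st), aminopeptidase A, takes acidic amino acids from the start of peptides. It had 7.29, 8.91 and 10.20 in high FE pigs, against 6.83, 9.03 and 10.04 in low FE pigs. Both groups held pigs with little and with much signal: high FE pig 5 had 7.29 and low FE pigs 3 and 6 had 6.83 and 6.95, while the other 9 pigs had 8.40 or more. The difference was 0.23 ± 0.64 (SE; 95% interval -1.17 to 1.62, adjusted p 0.939 in limma), the widest interval of the 9 genes.

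DPP4 (SNOWBALL_000370_st), dipeptidyl peptidase 4, removes dipeptides that end in proline or alanine and is also found on T cells. It had 8.14, 8.62 and 9.20 in high FE pigs, against 7.56, 8.56 and 9.08 in low FE pigs. The lowest value came from low FE pig 3, and the other 11 pigs had 8.14 or more. The difference was 0.11 ± 0.24 (SE; 95% interval -0.41 to 0.63). Its 3 other probe sets differed by -0.064, -0.081 and -0.060, and their r with the brightest was 0.87, 0.44 and 0.59, so the DPP4 probe sets did not all rank the pigs alike.

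XPNPEP2 (SNOWBALL_020613_st), the membrane-bound aminopeptidase P, frees an amino acid that stands before a proline. It had 4.93, 5.16 and 5.53 in high FE pigs, against 5.19, 5.31 and 5.82 in low FE pigs. Of the 6 high FE pigs, 3 lay under every low FE pig, and the difference was -0.20 ± 0.15 (SE; 95% interval -0.52 to 0.13, adjusted p 0.767 in limma). Across all alternatives run it stayed between -0.27 and -0.097, and it was never past the threshold.

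MEP1A and MEP1B encode the alpha and beta subunits of meprin, a zinc endopeptidase of the brush border. The beta subunit is anchored in the membrane and the alpha subunit can be shed. MEP1B (SNOWBALL_008944_st) had 6.86, 7.46 and 7.96 in high FE pigs, against 6.50, 7.53 and 8.29 in low FE pigs, and both extremes came from the low FE group. MEP1A (SNOWBALL_009998_st) had 3.55, 3.93 and 4.71 in high FE pigs, against 3.15, 3.67 and 4.52 in low FE pigs. Its mean of 3.84 lay just under 3.86, the median of the means of all probe sets, so MEP1A was measured at dim signal. The differences were -0.044 ± 0.29 (SE; 95% interval -0.67 to 0.59) for MEP1B and 0.26 ± 0.24 (SE; -0.26 to 0.78) for MEP1A.

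ACE (SNOWBALL_000128_st), angiotensin-converting enzyme, is a dipeptidyl carboxypeptidase that is found on the brush border and on endothelium. It had 4.93, 5.45 and 7.02 in high FE pigs, against 4.70, 5.38 and 6.54 in low FE pigs. High values occurred in both groups, 6.40 and 7.02 in high FE pigs 3 and 4, against 6.54 in low FE pig 5. The difference was 0.32 ± 0.41 (SE; 95% interval -0.58 to 1.22), and 0.071 for the second ACE probe set, which followed the first with an r of 0.94. It was 0.049 without high FE pig 4 and 0.55 without low FE pig 5, the extremes when 1 pig was left out. Without the 3 pigs lowest on the first principal component it was 1.07 (unadjusted p 0.0289, adjusted p 1.00 in limma). These are high FE pigs 1, 2 and 5, which had the 3 lowest ACE values of high FE (4.95, 4.93 and 4.99). Leaving them out therefore had to raise the difference, and it left 3 high FE pigs.

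PEPD (SNOWBALL_008045_st), prolidase, is the cytosolic member. It splits dipeptides that end in proline or hydroxyproline, which few other enzymes cut. It had 6.67, 7.04 and 8.33 in high FE pigs, against 7.09, 7.38 and 7.91 in low FE pigs. High FE pigs held both the 3 lowest values and the highest one, and the difference was -0.15 ± 0.28 (SE; 95% interval -0.75 to 0.46).

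TMPRSS15 (SNOWBALL_016123_st), enteropeptidase, is the only member that acts on proenzymes and not on food peptides. It had 6.60, 8.79 and 10.34 in high FE pigs, against 8.15, 9.35 and 9.89 in low FE pigs. High FE held both extremes, 6.60 in pig 1 and 10.34 in pig 5. The difference was -0.53 ± 0.51 (SE; 95% interval -1.65 to 0.59, adjusted p 0.794 in limma), and -0.13 without high FE pig 1. Without high FE pig 5 it was -0.85, and with the mean of Brunner gland and gastric type markers in the model 0.10, also not past the threshold.

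**Figure D2:**
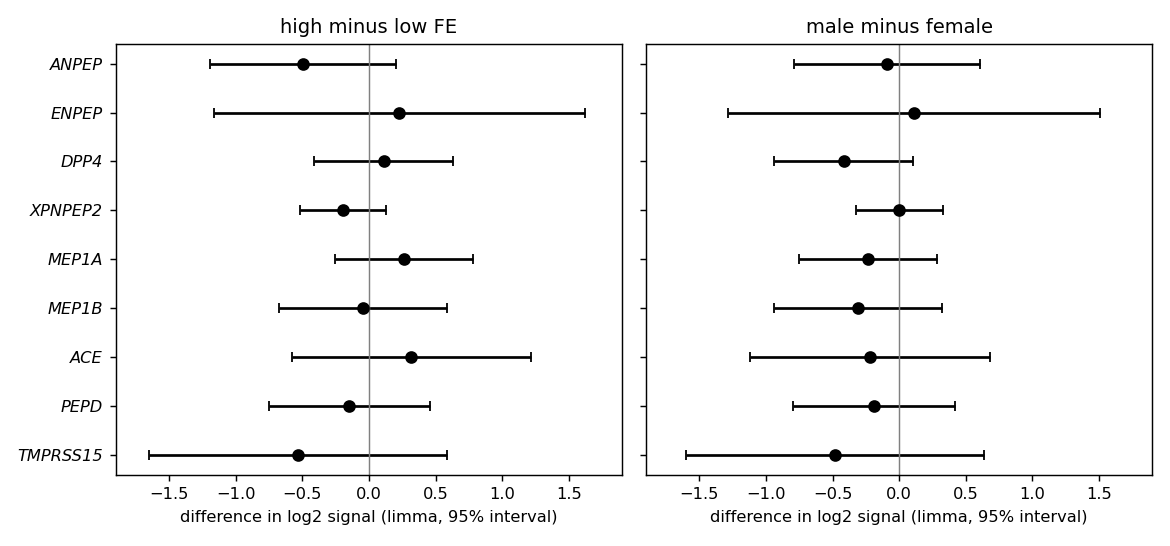
Differences in log2 signal (x axis) for each gene, high minus low FE on the left and male minus female on the right, with 95% intervals from limma. Every interval includes 0.

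Between the sexes, 0 of 9 genes passed in limma at an adjusted p of 0.05, where 0.021% of all probe sets did, and 0 of 9 had an unadjusted p under 0.05, beside 4.54% of all. The sexes overlapped for each of the 9 genes, and 0.269% of all probe sets separated them completely. Means were lower in males for 7 genes, with a median difference of -0.22 over the 9, beside 0.0031 over all probe sets. DPP4 had the lowest p, with 7.56, 8.29 and 9.02 in males, against 8.32, 8.73 and 9.20 in females. Its difference of -0.42 ± 0.24 (SE; 95% interval -0.94 to 0.11) had an unadjusted p of 0.108 and an adjusted p of 0.975 in limma. It was -0.58 without low FE pig 1 (unadjusted p 0.0218, adjusted p 0.996 in limma) and -0.25 without low FE pig 3. The DPP4 probe sets disagreed here as well, since the 3 others differed by -0.50, 0.083 and -0.078.

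The pig identifiers in the labels fall into 2 runs, 301 to 310 with all 6 males and 2 females, and 317 to 324 with the other 4 females. Sex and run are therefore largely confounded, while high and low FE are balanced over the runs. What the runs mean is not stated in the labels. With the run as a term the differences of males minus females were -0.78 for DPP4 (unadjusted p 0.0316), -0.75 for MEP1B (unadjusted p 0.0793) and -1.25 for ENPEP (unadjusted p 0.127), and none passed (adjusted p 1.00 each in limma). These differences come from the first run alone, so they rest on its 2 females, high FE pig 4 and low FE pig 4. Those 2 pigs had the highest DPP4 values of all, 9.20 and 9.08.

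TMPRSS15 had 6.60, 9.01 and 9.89 in males, against 8.02, 9.12 and 10.34 in females, a difference of -0.48 ± 0.51 (SE) that was -0.081 without high FE pig 1. Leaving out high FE pigs 1, 2 and 5 gave 0.00080. For MEP1B the means were 7.34 ± 0.53 in males and 7.65 ± 0.53 in females (SD, n = 6 each), with a difference of -0.31 that was -0.48 without high FE pig 5 and -0.12 without low FE pig 3. For MEP1A the means were 3.72 ± 0.24 in males and 3.96 ± 0.59 in females. The other differences of males minus females were -0.22 ± 0.41 (SE) for ACE, -0.19 ± 0.28 for PEPD, -0.095 ± 0.32 for ANPEP and 0.11 ± 0.64 for ENPEP. XPNPEP2, an X-linked gene in human, had a mean of 5.28 in males and 5.28 in females, with SDs of 0.34 and 0.15 (n = 6 each).

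No dependence of the FE difference on sex was detected for the 9 genes. In limma 0 of 9 interactions passed an adjusted p of 0.05, which 0.00299% of all probe sets did, and 0 of 9 had an unadjusted p under 0.05, beside 3.27% of all. PEPD had the lowest p of the 9, 0.0830 unadjusted and 0.998 adjusted. Its means were 6.95 ± 0.30 in high FE males and 7.58 ± 0.33 in low FE males, and 7.62 ± 0.85 in high FE females and 7.28 ± 0.17 in low FE females (SD, n = 3 each). The difference between those FE differences was -0.96 ± 0.51 (SE; 95% interval -2.08 to 0.15). It was -1.44 without high FE pig 5 (unadjusted p 0.00164, adjusted p 0.851 in limma) and -0.61 without high FE pig 6. With array weights it was -1.18 (unadjusted p 0.0120 in limma). It was -1.05 with the mature enterocyte score in the model (unadjusted p 0.0287) and -1.34 with the Brunner gland and gastric type score (unadjusted p 0.0143). The XPNPEP2 interaction was -0.61 with array weights (unadjusted p 0.0465 in limma). None of these passed after adjustment. When the 4 combinations of FE and sex were ordered by their means, only 1 of the 27 steps between neighbours over the 9 genes exceeded the larger of their SDs. That step was for PEPD, where low FE females lay 0.33 above high FE males.

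Individual pigs differed widely for most of these genes. ENPEP had an SD of 1.17 over the 12 pigs, and 98.7% of the probe sets tested had a smaller one. From low FE pig 3 to high FE pig 4 its signal spanned 10.3-fold. TMPRSS15 had an SD of 1.00 (97.7% of probe sets had a smaller one) and spanned 13.4-fold. ACE spanned 2.32 log2 units (SD 0.77) and ANPEP 2.23 log2 units (SD 0.63). MEP1B, PEPD, DPP4 and MEP1A had SDs from 0.45 to 0.53 and spanned 2.95-fold to 3.47-fold. XPNPEP2 was the exception: its SD of 0.25 was below the median of 0.30 over all probe sets, and it spanned 1.85-fold.

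**Figure D3:**
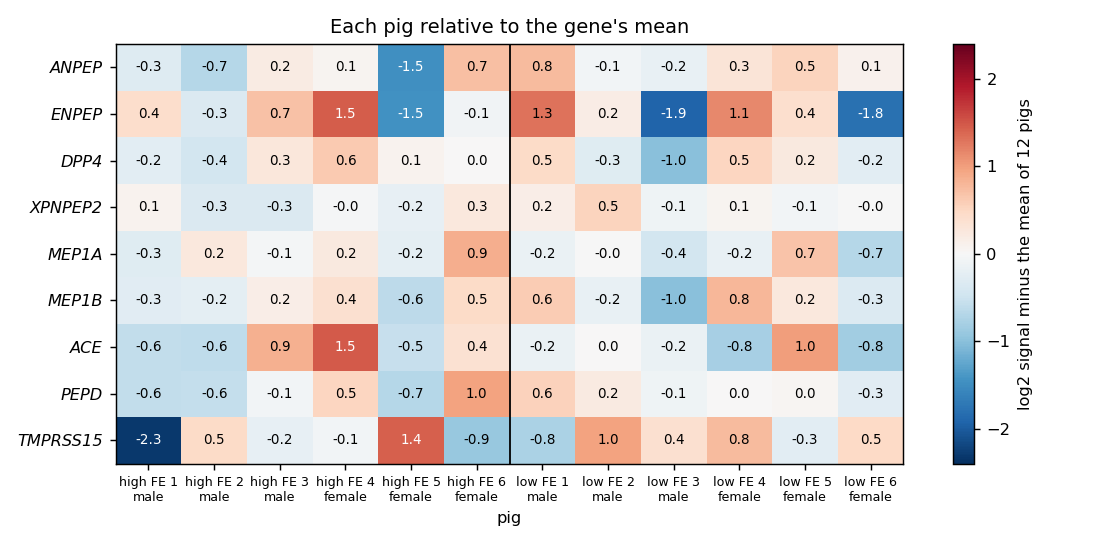
Log2 signal of each gene (rows) in each pig (columns, high FE left of low FE) minus that gene's mean over the 12 pigs, as colour and number. Low FE pig 3 was low for ENPEP, DPP4 and MEP1B together, and TMPRSS15 was lowest in high FE pig 1 and highest in high FE pig 5.

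The spread between pigs was shared among some of the members. Of the 36 pairs among the 9 genes, 27 had a positive and 9 a negative Pearson correlation over the 12 pigs, with a median r of 0.39. After Benjamini-Hochberg adjustment over the 36 pairs, 4 passed, all positive, and 7 had an unadjusted p under 0.05 (permutation test with 100000 resamples, two-sided). Arrays share technical variation, so a correlation between probe sets does not by itself concern the genes. Of all probe sets tested, 0.419% had an r of 0.8 or more with ENPEP, 0.563% with MEP1B, 0.485% with DPP4, 1.19% with ANPEP and 0.943% with PEPD. That cut differs from the call by adjusted p: ANPEP with PEPD (0.79) and DPP4 with ENPEP (0.77) passed below it. The share of pairs among all probe sets that would pass the same call was not computed. Whether 4 of 36 is particular to the peptidases was therefore not tested.

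**Figure D4:**
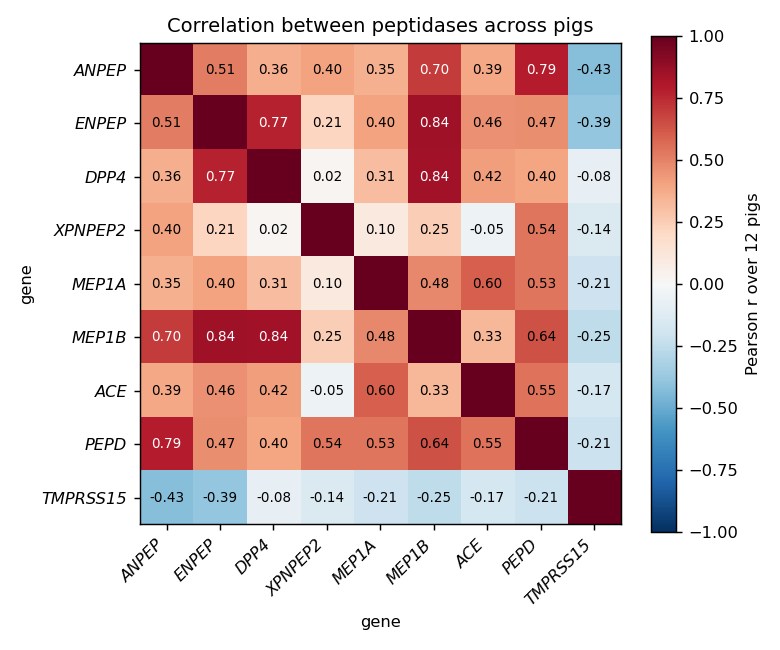
Pearson r over 12 pigs for each pair of the 9 genes, as colour and number. ENPEP, DPP4 and MEP1B form a block of high values, ANPEP and PEPD form another pair, and the TMPRSS15 row is negative throughout.

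ENPEP, MEP1B and the brightest DPP4 probe set varied together. The other DPP4 probe sets followed that one at r of 0.87, 0.44 and 0.59, so the DPP4 values below need not hold for them. When the probe sets of each gene were averaged, 2 of 36 pairs passed in place of 4. The r of ENPEP and MEP1B was 0.84 (permutation p 0.00045, adjusted p 0.0148), with a rho of 0.78 (permutation p 0.0038), and 0.79 without the pigs farthest from the ENPEP median, low FE pigs 3 and 6. For DPP4 and MEP1B the r was also 0.84 (permutation p 0.00082, adjusted p 0.0148), with a rho of 0.73 (permutation p 0.0095, adjusted p 0.0572), and 0.74 without high FE pig 4 and low FE pig 3. Leaving out low FE pig 3 alone gave 0.74 as well, at an adjusted p of 0.0936 in that permutation test. DPP4 and ENPEP had an r of 0.77 (permutation p 0.0034, adjusted p 0.0306) and a rho of 0.80 (permutation p 0.0032). Without high FE pig 4 and low FE pig 3 that r was 0.58, so it rests partly on those pigs. Leaving out 1 pig at a time ended the DPP4 and ENPEP call in 7 of 12 cases, which were high FE pigs 3, 4 and 6 and low FE pigs 1, 3, 4 and 5, at r from 0.66 to 0.77. Without the 3 pigs lowest on the first principal component the r of these pairs was 0.86, 0.92 and 0.90.

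ANPEP and PEPD formed the fourth pair, with an r of 0.79 (permutation p 0.0018, adjusted p 0.0211) and a rho of 0.80 (permutation p 0.0028). Without high FE pigs 2 and 5 the r was 0.71. The call was lost without high FE pig 2 (adjusted p 0.0542) and without low FE pig 1 (adjusted p 0.0799) in the same permutation test. Without the 3 pigs lowest on the first principal component the r was 0.59 (adjusted p 0.361, permutation test). ANPEP is a surface enzyme and PEPD a cytosolic one.

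TMPRSS15 had a negative r with each of the 8 other genes, from -0.43 to -0.083, and none passed. The lowest was with ANPEP, at -0.43 (permutation p 0.164, adjusted p 0.371), with a rho of -0.46 (permutation p 0.134) and an r of -0.042 without high FE pigs 2 and 5. This value turned on 2 pigs. Without high FE pig 1 it was -0.80 and passed (adjusted p 0.0227, permutation test), and without high FE pig 5 it was -0.16. With ENPEP the r was -0.39 (permutation p 0.215, adjusted p 0.371), the rho was -0.36 (permutation p 0.246), and r was -0.36 without low FE pigs 3 and 6. Without high FE pig 1 the count of pairs past the threshold was 6 of 36, including TMPRSS15 with ANPEP and with PEPD (r of -0.75), and without low FE pig 1 it was 2 of 36.

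The same pigs differed in markers of the cell types in the mucosa. The mean log2 signal of 13 mature enterocyte markers, none of them a peptidase described here, was 9.50, 8.81, 9.51, 9.81, 8.77 and 9.60 in high FE pigs 1 to 6, against 9.98, 8.82, 7.88, 9.72, 9.47 and 8.40 in low FE pigs 1 to 6. Low FE pigs 3 and 6, with the lowest ENPEP values, were the lowest here as well. The mean of 6 Brunner gland and gastric type markers (AQP5, GKN1, GKN2, MUC5AC, PGC and TFF2) ranged more widely, from 5.62 to 9.10 in high FE and from 6.79 to 11.16 in low FE pigs, highest in low FE pig 3 and lowest in high FE pig 1. The 8 T and NK cell markers had means of 6.73 to 7.76 in high FE and 6.64 to 7.48 in low FE pigs.

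Each gene was set against 15 gene lists, the array background and the first principal component, 153 relations in all. After adjustment over the 153, 8 passed, and 39 had an unadjusted p under 0.05 (permutation test with 100000 resamples). The share of all probe sets that follow the same lists as closely was not computed. Whether these counts are particular to the peptidases was therefore not tested. ENPEP followed the mature enterocyte markers most closely, with an r of 0.91 (permutation p 2.0e-05, adjusted p 0.00306), a rho of 0.92 (permutation p 4.0e-05) and an r of 0.83 without the 2 farthest pigs. MEP1B followed them with an r of 0.89 (permutation p 6.0e-05, adjusted p 0.00459) and a rho of 0.90 (permutation p 0.00013), with 0.84 without the 2 farthest. DPP4 did so with an r of 0.86 (permutation p 0.00037, adjusted p 0.0113) and a rho of 0.78 (permutation p 0.0041, adjusted p 0.0573), with 0.75 without the 2 farthest. The DPP4 call was lost without low FE pig 3, at an r of 0.76 and an adjusted p of 0.0944 (permutation test). All DPP4 relations with the lists concern its brightest probe set, which the others followed at r of 0.87, 0.44 and 0.59.

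When the mature enterocyte score was taken out of each gene first, none of the 36 pairs passed in the permutation test, and 3 had an unadjusted p under 0.05. The r was then 0.16 for ENPEP and MEP1B, 0.29 for DPP4 and MEP1B and -0.12 for DPP4 and ENPEP. The r left for a pair follows by arithmetic from its own r and the r of each gene with the score. ENPEP, MEP1B and DPP4 had 0.91, 0.89 and 0.86 with the score, so these falls are no separate test of what the genes share. This step was also added after seeing the data. The pair of ANPEP and PEPD had an r of 0.72 (permutation p 0.0076, adjusted p 0.136). ANPEP itself had an r of 0.51 with the enterocyte markers (permutation p 0.0871, adjusted p 0.284; rho 0.64, permutation p 0.0295) and 0.77 without the 2 farthest pigs.

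Other relations past the threshold involved MEP1B, DPP4 and PEPD. MEP1B had an r of 0.88 (permutation p 0.00028, adjusted p 0.0107, and rho 0.86 with permutation p 0.00069) with 12 genes listed as peptide and amino acid transport partners. Its r was 0.84 (permutation p 0.00063, adjusted p 0.0161; rho 0.85, permutation p 0.00098) with 10 transcription factors of the intestinal epithelium, and this call was lost without low FE pig 3, at an r of 0.77 and an adjusted p of 0.0742. DPP4 had an r of 0.82 with the transport partners (permutation p 0.00093, adjusted p 0.0178, and rho 0.76 with permutation p 0.0062, adjusted p 0.0727). This call was also lost without low FE pig 3, at 0.75 and an adjusted p of 0.105. Without the 2 farthest pigs these 3 values were 0.84, 0.79 and 0.73. The DPP4 value was 0.85 without the 3 pigs lowest on the first principal component, no longer past the threshold (adjusted p 0.0548, permutation test).

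T and NK cell markers also moved with MEP1B and PEPD. The r was 0.87 for MEP1B (permutation p 0.00028, adjusted p 0.0107; rho 0.92, permutation p 0.00012) and 0.84 for PEPD (permutation p 0.00074, adjusted p 0.0162; rho 0.86, permutation p 0.00048). Without the 2 farthest pigs they were 0.89 and 0.87. The PEPD call was lost without high FE pig 6 (r of 0.74, adjusted p 0.0836, permutation test). Without the 3 pigs lowest on the first principal component the values were 0.84 and 0.85, with adjusted p of 0.0548 and 0.0541. For DPP4, which T cells carry too, the r with these markers was 0.68 (permutation p 0.0152, adjusted p 0.0928, and rho 0.66 with permutation p 0.024). That r was not particular to DPP4. It was 0.75 for ANPEP, 0.73 for ENPEP and 0.69 for MEP1A (adjusted p 0.0599, 0.0729 and 0.0868, permutation test). For ACE, XPNPEP2 and TMPRSS15 it was 0.54, 0.34 and -0.46.

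TMPRSS15 ran the other way along the tissue markers. Its r was 0.66 with the Brunner gland and gastric type markers (permutation p 0.0182, adjusted p 0.103; rho 0.69, permutation p 0.0178) and -0.49 with those of mature enterocytes (permutation p 0.103, adjusted p 0.316; rho -0.48, permutation p 0.122). ENPEP, DPP4 and MEP1B had an r of -0.69 each with the Brunner gland and gastric type markers (adjusted p 0.0868 each, permutation test; rho -0.52, -0.48 and -0.48). None of these relations passed. ACE, which endothelium also carries, had an r of 0.21 with 8 endothelial markers (permutation p 0.507, adjusted p 0.719; rho 0.25, permutation p 0.431). No gene passed with the array background or the first principal component. Whether the cell makeup of the samples accounts for the shared spread was not tested.

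**Figure D5:**
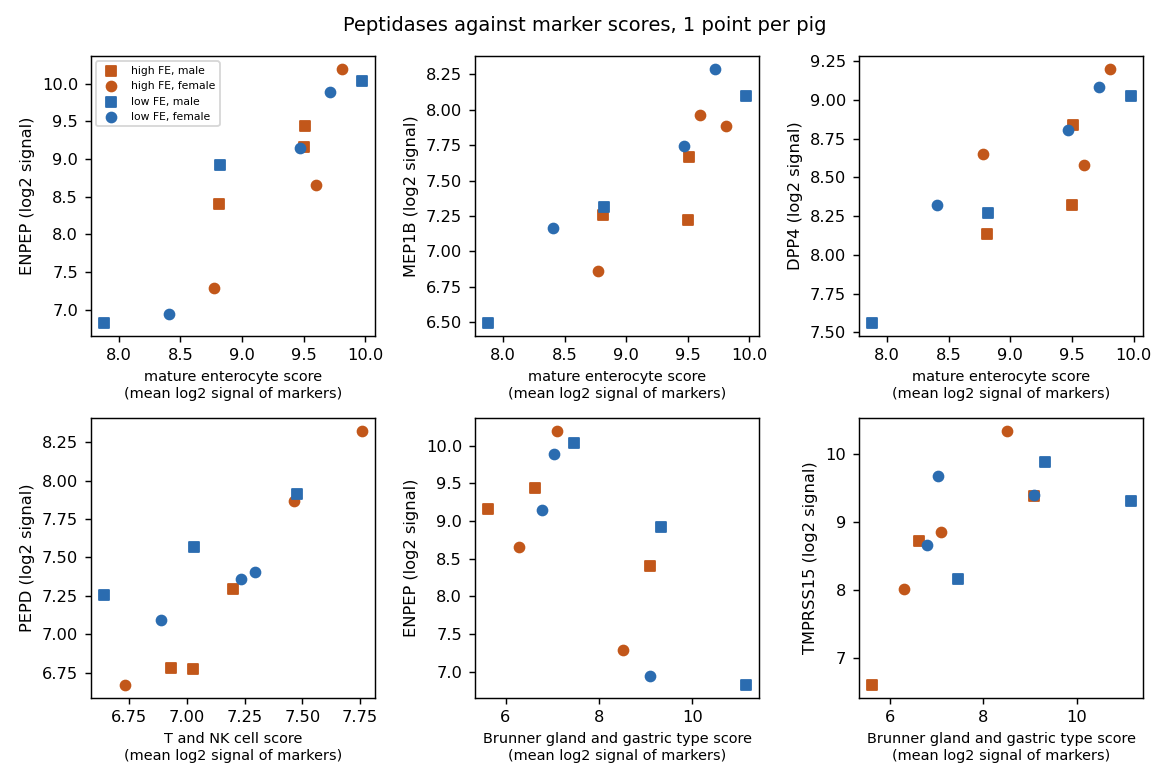
Log2 signal of a peptidase gene (y axis) against the mean log2 signal of a marker list (x axis), 1 point per pig (squares male, circles female, orange high FE, blue low FE). ENPEP, MEP1B and DPP4 follow the mature enterocyte markers, PEPD follows the T and NK cell markers, and ENPEP and TMPRSS15 slope in opposite directions along the Brunner gland and gastric type markers.

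Genes that work beside the 9 peptidases were taken from lists by function. No gene of these lists passed in limma for FE, sex or their interaction. The list of other membrane peptidases, which also holds ENPP7 and BTNL8, had 10 of its 14 genes measured. Of these, 4 had higher and 6 lower means in high FE, and the median difference was -0.11. DPEP1, a dipeptidase, had a mean of 6.05 in high FE and 6.73 in low FE pigs, a difference of -0.68 ± 0.21 (SE; unadjusted p 0.00737, adjusted p 0.753 in limma). GGT1, which splits glutathione, had 6.53 in high FE and 7.27 in low FE pigs, a difference of -0.74 ± 0.34 (SE; unadjusted p 0.0488 in limma). Between males and females, MME, the endopeptidase neprilysin, differed by -0.72 ± 0.37 (SE) and CPD, a carboxypeptidase, by 0.25 ± 0.24 (SE).

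Of 28 cytosolic and lysosomal peptidases measured of 30 listed, PEPD among them, 11 had higher and 17 lower means in high FE, and their median difference was -0.10. TPP1, a lysosomal tripeptidyl peptidase, had 7.45 in high FE and 7.88 in low FE pigs, a difference of -0.43 ± 0.16 (SE; unadjusted p 0.0199 in limma). LAP3, the cytosolic leucine aminopeptidase, had 7.01 in high FE and 6.53 in low FE pigs, a difference of 0.47 ± 0.21 (SE; unadjusted p 0.0410 in limma). Between males and females DPP3 differed by -0.27 ± 0.14 and LAP3 by 0.33 ± 0.21 (SE). Both TPP1 and LAP3 had an adjusted p of 0.753 for FE.

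Among the 12 transport partners measured of 13 listed, 3 had higher and 9 lower means in high FE (median difference -0.087). SLC7A8, a transporter of neutral amino acids, differed by -0.42 ± 0.29 (SE), and SLC1A1, which carries glutamate and aspartate, by -0.24 ± 0.20 (SE). In males 10 of the 12 had lower means than in females, with a median of -0.16. SLC15A1, the peptide transporter PEPT1, had 8.11 in males and 8.70 in females, a difference of -0.59 ± 0.39 (SE), and SLC3A1 differed by -0.37 ± 0.23 (SE). The 10 transcription factors measured of 14 listed had 3 higher and 7 lower means in high FE (median difference -0.025). KLF5 differed by 0.28 ± 0.23 and GATA4 by -0.099 ± 0.16 (SE) between high and low FE, and MAF by -0.33 ± 0.29 and HNF4G by -0.14 ± 0.22 (SE) between males and females.

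The list of enteropeptidase substrates and trypsin inhibitors had 11 measured genes of 19 listed, and all 11 were lower on average in high FE (median difference -0.57). Despite its name, the list also holds other pancreatic enzymes, such as CTRL and CELA2A, which enteropeptidase does not cut itself. Its counts therefore do not concern the substrate of enteropeptidase alone. The size of that median rests largely on low FE pig 6, the pig with high pancreatic markers. Its mean over the list was 8.55, while the other 11 pigs had 6.29 to 6.68. Without that pig 1 gene was higher and 10 were lower in high FE, with a median of -0.12. SERPINA1, a secreted protease inhibitor, differed by -0.76 ± 0.45 and SPINK4, a protein of goblet cells, by -0.57 ± 0.33 (SE) between high and low FE with all pigs. Between males and females CTRL, a chymotrypsin-like protease, differed by -0.76 ± 0.56 and CELA2A, an elastase, by -0.69 ± 0.50 (SE) with all pigs. Low FE pig 6 is female, and without it the median over the list between males and females was -0.076 in place of -0.33. In the same pig TMPRSS15 was at 9.40, inside the range of the others.

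Over the 12 pigs and 12221 genes, the genes most like each peptidase were ranked by Pearson r, as a description. MEP1B was closest to ENPP3 (r of 0.95), MTPN (0.92) and OTC (0.92), and ENPEP to CDKN3 (0.94), RNF186 (0.93) and OTC (0.92). OTC, a mitochondrial enzyme of citrulline synthesis in enterocytes, was thus shared by both. DPP4 was closest to HSD17B4 (0.95), LOC100157285 (0.94) and TYW1 (0.94). ANPEP was closest to MDH1 (0.94), a cytosolic malate dehydrogenase, NDUFA8 (0.93), a subunit of respiratory complex I, and ACOT8 (0.93), a thioesterase. PEPD was closest to CD3D (0.95), a subunit of the T cell receptor complex and 1 of the 8 T and NK cell markers, to IRF1 (0.94), a transcription factor induced by interferon, and to ABCG2 (0.93).

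TMPRSS15 was closest to SLC26A3 (0.92), the chloride and bicarbonate exchanger of the intestinal surface, PDZD8 (0.89) and LDLRAD3 (0.85). ACE and MEP1A both had EXOSC8 (0.86 each) among their 3 closest, with BLOC1S2 (0.85) and ENOX2 (0.85) for ACE, and LOC100518801 (0.87) and SEC16B (0.83) for MEP1A. XPNPEP2 was closest to DIS3L2 (0.85), DYRK1B (0.84) and TES (0.83). The mean of the 9 peptidases, each centred on its own mean, was most like ABHD6 (0.95), BCAR3 (0.94), B2M (0.93), AMPD2 (0.92), SLC27A4 (0.92), SLC6A4 (0.91), GPR160 (0.91), SLC15A1 (0.90), TMC5 (0.90) and DHDH (0.89). SLC15A1 takes up the dipeptides and tripeptides that the brush border peptidases release.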

How the data were processed

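RNA of duodenal mucosa was converted with the Ambion WT Expression Kit and hybridised, 1 array per pig, per the labels' protocols. The authors deposited 1 log2 value per probe set and array, and these were used unchanged. The log2 scale was read from the values, which run from 0.21 to 14.21. The submitters' processing notes name GCOS 1.1.1. Background correction, normalization and probe summarization are not given in the sources used. Correlations between arrays lay between 0.951 and 0.976, so no 2 arrays held the same values. Nothing says how the pigs were related, so the p-values measure the spread between these pigs.

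The 123 control probe sets were left out. Symbols came from the platform annotation (26426 probe sets with 1 symbol, 0 with several, 21296 with none), and 263 older symbols were updated through the Sscrofa11.1 gene table. Coordinates and sequences were not used here.

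Probe sets with a mean above the 30th percentile (log2 2.37) were kept, 33405 in all, and 12221 genes by brightest probe set. The tests used limma 3.58.1 (lmFit and eBayes, R 4.3.3) in a model with FE and sex, and in a model of the 4 FE and sex combinations for the interaction, and p-values were adjusted by Benjamini-Hochberg over the 33405. Correlations used Pearson r and Spearman rho with two-sided permutation p. The fits and correlations were tested on simulated data. From each gene list the text names the 2 genes with the lowest unadjusted p for FE and the 2 for sex, from each likeness ranking the 3 closest genes, and of the pairs the 4 highest and 2 lowest r. The members, gene lists and markers were chosen with earlier results of these data known.

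Alternatives changed the filter, normalization, variance model, array weights, probe sets per gene, model terms and set of pigs. Added after seeing the data were the Brunner gland score as a term, leaving out the 3 arrays with the lowest first component, taking out the mature enterocyte score, the relations with gene lists under other settings, and the lists without low FE pig 6.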

Additional observations from a re-analysis of the deposited data

Results flagged for a closer look

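ANPEP in high FE pig 5 lay apart from the other females. Its signal was 10.04, and the next female had 11.57 and the highest 12.22, a gap of 0.701 of the females' whole range. Of 36 groups tested, counting each of the 9 genes in each FE group and each sex, this was the only pig beyond Dixon's 95% limit, and chance alone flags about 1 group in 20. The same pig had the lowest PEPD signal (6.67) and the highest TMPRSS15 signal (10.34). Without it the difference between males and females for ANPEP was -0.38 in place of -0.095, and the difference between high and low FE was -0.21 in place of -0.49, neither past the threshold. Its array lay second lowest on the first principal component, and the part of this in the ANPEP value was not tested.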

How the results depend on the processing

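No alternative brought any of the 9 genes past the threshold for FE, sex or the interaction, and the count stayed at 0 in each. MEP1A has no value with the filter at the median signal. For the interaction, the sign held over all alternatives only for ACE, PEPD and XPNPEP2. The sign of the FE and sex differences turned in these cases. For FE: array weights gave MEP1B 0.063; the mean of all probe sets gave DPP4 -0.024; the array background as a term gave DPP4 -0.056, ENPEP -0.077 and PEPD 0.021. The enterocyte score as a term gave DPP4 -0.066 and ENPEP -0.30, and the Brunner gland score DPP4 -0.14, ENPEP -0.57 and TMPRSS15 0.10. Leaving out high FE pigs 1, 2 and 5, lowest on the first component, ANPEP was 0.054, MEP1B 0.26 and PEPD 0.39. Those pigs had the 3 lowest high FE values of each of these genes, so leaving them out had to raise these differences. For sex: quantile normalization gave XPNPEP2 -0.011 and array weights ENPEP -0.012. The background term gave ACE 0.0055, ANPEP 0.089, ENPEP -0.16 and XPNPEP2 -0.0084. The pig identifier run as a term gave ENPEP -1.25 and XPNPEP2 -0.015. ANPEP was 0.041 with the enterocyte and 0.11 with the Brunner gland score. Without those 3 pigs ACE was 0.057, ENPEP -0.041 and TMPRSS15 0.00080. Taking out the enterocyte score turned the r of DPP4 and ENPEP to -0.12 and that of ENPEP and TMPRSS15 to 0.18.

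Leaving out 1 pig gave FE differences of -0.054 to 0.27 for DPP4, -0.18 to 0.56 for ENPEP, -0.24 to 0.13 for MEP1B and -0.36 to 0.012 for PEPD. For sex it gave -0.40 to 0.050 for ACE, -0.38 to 0.11 for ANPEP, -0.25 to 0.52 for ENPEP, -0.35 to 0.021 for PEPD and -0.097 to 0.078 for XPNPEP2. The median over the 9 genes ran from -0.18 to 0.13 for FE and from -0.38 to -0.078 for sex. The count of pairs past the threshold, 4 of 36, was 2 with the mean of all probe sets, 0 after the enterocyte score was taken out, and 2 to 6 when 1 pig was left out. The causes were not tested. No paired analysis was possible because replicate numbers were given in accession order and the labels pair no pigs. With 6 pigs per group the FE intervals of ENPEP and TMPRSS15 each span over 2 log2 units, and MEP1A was measured at dim signal.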
